A study of Mus musculus with 12 samples.

Results

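A set of 10 genes of glycolysis and lactate transport was followed through RNA sequencing of sorted mouse cells at 2 ages and in 2 regions of the central nervous system. They were taken by symbol from a fixed list of 10 (Slc2a1, Hk1, Hk2, Pfkp, Pfkm, Pkm, Ldha, Ldhb, Slc16a1 and Slc16a3), and all 10 were found among 47069 distinct genes and passed the filter that left 18319 for testing. The cells came from Pdgfra-H2BGFP mice, a heterozygous knock-in that places a nuclear fluorescent protein (GFP) under the Pdgfra locus, and GFP-positive cells were sorted from forebrain (called brain here) or spinal cord at the embryonic age E13.5 or the postnatal age P7 (days), 3 libraries in each of 4 groups. All 4 groups carry the same allele, and the labels name no treatment. Each library was a pool of animals of both sexes, and GFP persists into early oligodendrocytes, so the sort can hold cells past the precursor stage. By single-cell sequencing, the study found neural progenitors and pericyte-like cells among GFP-positive cells at E13.5, and no postnatal precursor cluster there. At P7 it left out dim cells that lacked Pdgfra. The ages therefore differ in the cells sorted. Embryonic tissue was dissociated mechanically and P7 tissue with papain, so age and dissociation cannot be told apart.

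Glycolysis turns glucose into pyruvate. Glucose enters the cell through transporters such as GLUT1 (Slc2a1), hexokinases (Hk1, Hk2) trap it as glucose 6-phosphate, phosphofructokinase (Pfkp, Pfkm) commits it to the pathway and pyruvate kinase (Pkm) makes pyruvate, which lactate dehydrogenase (subunits Ldha and Ldhb) interconverts with lactate. Lactate crosses membranes with a proton through the monocarboxylate transporters MCT1 (Slc16a1) and MCT4 (Slc16a3). In the nervous system this pathway is best known for the passage of lactate from glia to axons, in which MCT1 of oligodendrocytes takes part, and for its induction by low oxygen through hypoxia-inducible factors.

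Reads per library ranged from 12566345 to 19903022 at E13.5 and from 25276708 to 38790312 at P7. The member with the fewest reads, Slc16a3, had 50 to 229 reads per library, and Pkm had 2620 to 20839. A single library stood apart: in E13.5 spinal cord replicate 3, 41.0% of reads fell in protein-coding genes, against 82.4% or more in the other 11. That library also read high for 9 of the 10 members, with a median 0.51 above the mean of the other 2 on the log2 scale. E13.5 brain replicate 3 read high for 7 of the 10, with a median of 0.24. Main member results and most list counts that use the spinal cord library are given with and without it below. Other named genes are given with it only. P7 replicates 1 and 2 of each region were closer to each other than to replicate 3, with a mean chi-square per gene between them of 2.43 in brain and 3.65 in spinal cord (median 0.618 and 0.706). Sampling alone gives a mean of 1 and a median below 1, so these medians do not lie below sampling noise. Against replicate 3 the mean was 17.9 to 24.7 and the median 2.19 to 2.37. The methods of the study call the replicates biological and they were kept as separate samples, but the counts do not show whether replicates 1 and 2 came from separate pools. With them averaged into 1, the members called fell from 5 to 4 for age in brain (Hk2 lost) and from 5 to 4 for the interaction described below (Ldha lost). The deposited scaling placed the 3 P7 brain libraries lower than trimmed mean of M-values (TMM) scaling would. The median log2 change of all tested genes was -0.19 with age in brain and 0.12 in spinal cord, against -0.02 and 0.12 under TMM, so brain values are given under both where the call differs. The precursor markers Pdgfra, Cspg4, Olig1, Olig2 and Sox10 were detected in all 4 groups, and their summed level was 486 to 1232 CPM (a gene's reads relative to its library's rescaled size) at E13.5 and 4793 to 5954 CPM at P7.

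**Figure D1:**
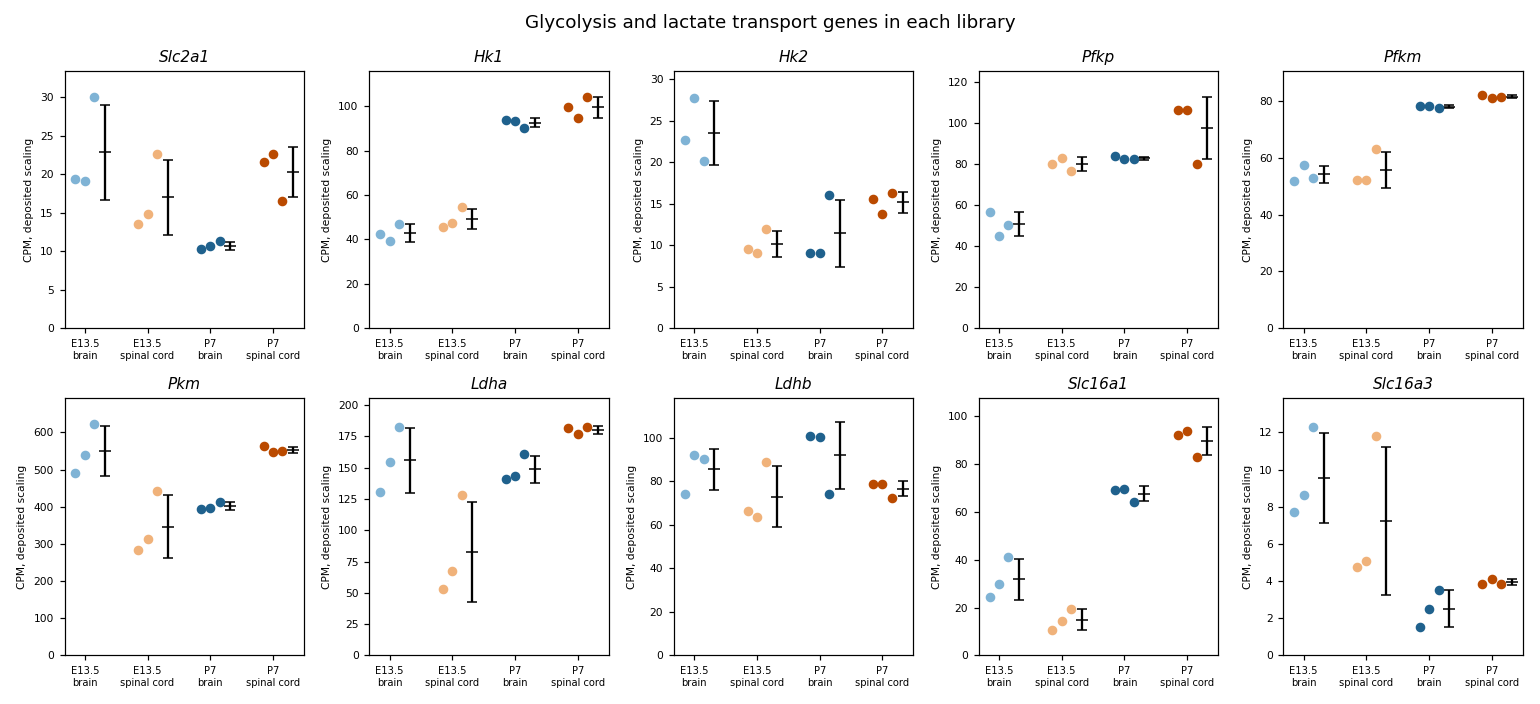
Level of each gene in CPM (vertical axes, linear, from 0) in the 12 libraries, with replicates 1 to 3 from left to right as points and the group mean ± SD beside them. Slc16a1 lies between 63.9 and 93.6 CPM in all P7 libraries and between 10.8 and 41.2 CPM in all E13.5 libraries, and Slc16a3 lies the other way round.

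The first question of the design is how the sorted cells changed between E13.5 and P7, asked in each region by itself. The clearest change was in the lactate transporters: Slc16a1 rose in both regions, most in spinal cord, while Slc16a3 fell in brain. Slc16a1 was already above Slc16a3 in every E13.5 library, and its excess grew with age. Hk1 rose in both regions, Ldha rose in spinal cord, and Slc2a1 and Hk2 fell in brain under the deposited scaling. In brain, 2 of the 10 members were called higher and 3 lower (called means a Benjamini-Hochberg adjusted p under 0.05 by limma and a change of more than 2-fold), beside 11% of all tested genes called higher and 16.7% called lower. In spinal cord, 3 members were called higher and 0 lower, beside 16.9% and 18.2% of all tested genes. No member fell at an unadjusted p under 0.05 in spinal cord by limma, while edgeR and DESeq2 each gave 1 such member and called 0. The 10 members had a median log2 change of 0.02 with age in brain (0.21 under TMM) and 0.56 in spinal cord (0.66 without E13.5 spinal cord replicate 3, with 3 called higher and 0 lower). The comparisons are of sorted bulk RNA, in which fewer cells of a type and less RNA per cell cannot be told apart.

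Gene positions below are those of GENCODE M21 on mm10 (GRCm38), and levels are sums over all exons of a gene. Slc16a1 (chr3:104638668-104658462, plus strand) encodes MCT1, the lactate and pyruvate carrier of oligodendrocytes and endothelium. Its level at E13.5 was 24.4, 29.8 and 41.2 CPM for brain and 10.8, 14.3 and 19.6 CPM for spinal cord. At P7 it was 69.0, 69.6 and 63.9 CPM in brain and 92.0, 93.6 and 82.9 CPM in spinal cord. Every P7 library was above every E13.5 library. The log2 change was 1.11 ± 0.20 (SE; limma adjusted p = 0.000385) in brain and 2.58 ± 0.20 (adjusted p = 1.58e-07) in spinal cord. Without E13.5 spinal cord replicate 3 the spinal cord change was 2.79 ± 0.18. Without E13.5 brain replicate 1 the brain change was 0.94, below the 2-fold line.

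Slc16a3 (chr11:120948480-120960868, plus strand) encodes MCT4, the carrier typical of cells that release lactate. Its level was 7.70, 8.65 and 12.3 CPM in E13.5 brain and 1.51, 2.51 and 3.54 CPM in P7 brain. In spinal cord it was 4.76, 5.07 and 11.8 CPM at E13.5 and 3.83, 4.13 and 3.85 CPM at P7. The ages did not overlap in either region, but the gap in spinal cord was narrow and the highest E13.5 value was that of replicate 3. The log2 change was -1.76 ± 0.32 (limma adjusted p = 0.000437) in brain, a fall. The spinal cord values were -0.68 ± 0.32 (adjusted p = 0.0764), which did not pass, and -0.29 ± 0.25 without replicate 3.

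The ratio of the transporters within a library does not depend on scaling. On the log2 scale, per kilobase of exon, the ratio of Slc16a1 to Slc16a3 of E13.5 libraries was 1.995 ± 0.06 (SD, n = 3) for brain and 1.40 ± 0.39 for spinal cord, and at P7 it was 5.09 ± 0.67 and 4.77 ± 0.08. The lowest P7 library, at 4.44, was above the highest E13.5 library, at 2.05. The geometric mean ratio was thus 8.54-fold higher at P7 than at E13.5 in brain and 10.3-fold higher in spinal cord (8.96-fold without E13.5 replicate 3), and the length used for each gene drops out of these changes.

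Sequences before the starts of Slc16a1, Ldha and Hk2 are shown as examples from a transporter, a dehydrogenase and a hexokinase with a called change, and were chosen with the match counts of all members known. The windows are RefSeq promoters on GRCm38.p6, each 300 bases long and mostly before a transcription start, printed 5′ to 3′ on the gene's strand, and all 10 symbols had at least 1. Capitals mark ACGTG and its variant with the letters GCGTG on either strand, the core letters to which hypoxia-inducible factors are known to bind. CACGTG, the E-box of Myc and related factors, contains ACGTG on both strands and is counted there 2 times. The Slc16a1 window (chr3:104638414-104638713, plus strand) held 5 such matches, the Ldha window (chr7:46845554-46845853, plus strand, the first of 2 listed) held 7 and the Hk2 window (chr6:82774405-82774704, minus strand) held 2.
Slc16a1: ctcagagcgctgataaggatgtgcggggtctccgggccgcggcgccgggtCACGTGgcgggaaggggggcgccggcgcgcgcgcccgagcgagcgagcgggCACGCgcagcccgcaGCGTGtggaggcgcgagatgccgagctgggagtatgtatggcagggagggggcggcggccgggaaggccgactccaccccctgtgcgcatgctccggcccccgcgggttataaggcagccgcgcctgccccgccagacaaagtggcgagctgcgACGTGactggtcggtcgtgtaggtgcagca
Ldha: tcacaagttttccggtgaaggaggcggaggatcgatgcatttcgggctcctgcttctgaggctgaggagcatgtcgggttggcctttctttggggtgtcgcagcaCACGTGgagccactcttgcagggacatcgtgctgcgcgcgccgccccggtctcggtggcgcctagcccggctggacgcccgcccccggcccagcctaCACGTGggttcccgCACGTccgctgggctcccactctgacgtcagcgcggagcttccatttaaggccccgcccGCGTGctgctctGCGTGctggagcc
Hk2: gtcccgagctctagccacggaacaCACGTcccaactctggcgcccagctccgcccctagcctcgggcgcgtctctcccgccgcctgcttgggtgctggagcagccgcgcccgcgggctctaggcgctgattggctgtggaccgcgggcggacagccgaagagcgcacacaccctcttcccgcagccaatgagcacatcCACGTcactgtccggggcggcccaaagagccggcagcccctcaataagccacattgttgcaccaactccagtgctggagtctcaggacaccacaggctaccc
Of 32851 mouse promoters of this length, 43.8% held at least 1 of these matches. ACGTG stood in 19.6%, the variant GCGTG in 32.4% and the E-box in 7.15%. The E-box stood 2 times in the Ldha window and 1 time in the Slc16a1 window. The single listed Slc16a3 and Slc2a1 windows held 2 matches each, and the Ldhb window held 1. Of the 2 windows listed for Hk1, the first held 0 and the second 5. Those of Pkm held 0 and 2. The Pfkp window held 4, and the 4 Pfkm windows held from 0 to 3. The second Ldha window held 2. A match is a string of letters and not a measured binding site.

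Ldha (chr7:46841475-46855627, plus strand) encodes the lactate dehydrogenase subunit that favours lactate formation. In spinal cord it was 52.9, 67.5 and 128 CPM at E13.5 and 182, 177 and 182 CPM at P7, so the ages did not overlap. The log2 change was 1.22 ± 0.24 (limma adjusted p = 0.000617). Without E13.5 spinal cord replicate 3, the highest of that group, it was 1.58 ± 0.13, and without replicate 1 it was 0.95, below the 2-fold line. In brain the values were 131, 155 and 182 CPM at E13.5 and 141, 144 and 161 CPM at P7. These overlapped, with a log2 change of -0.06 ± 0.24 (adjusted p = 0.852) under the deposited scaling and 0.13 ± 0.24 under TMM.

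Ldhb (chr6:142490249-142507957, minus strand) encodes the subunit that predominates in oxidative tissues such as heart. Its 12 values ran from 63.5 to 101 CPM, the narrowest span in fold terms of the lactate genes, and the ages overlapped in both regions. The log2 change was 0.10 ± 0.15 in brain (limma adjusted p = 0.591) and 0.09 ± 0.15 in spinal cord (adjusted p = 0.622), or 0.24 ± 0.13 (adjusted p = 0.112) without E13.5 spinal cord replicate 3. The log2 ratio of Ldha to Ldhb per kilobase went from -0.98 ± 0.42 (SD, n = 3) to 0.16 ± 0.08 with age in spinal cord, a 2.20-fold rise with no overlap (2.56-fold without E13.5 replicate 3). In brain it was -0.22 ± 0.14 at E13.5 and -0.37 ± 0.36 at P7, which overlapped. Whether Ldha stands above or below Ldhb cannot be read from these ratios, because their sign depends on which transcript length is used.

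Hk1 (chr10:62268855-62379908, minus strand) encodes the hexokinase that most brain cells use, bound to mitochondria. Its level was 42.5, 39.1 and 47.0 CPM in E13.5 brain and 93.9, 93.4 and 90.1 CPM in P7 brain. The spinal cord values were 45.7, 47.5 and 54.5 CPM at E13.5 and 99.9, 94.8 and 104 CPM at P7. The P7 values were all above the E13.5 values, and the regions lay close together at each age. The log2 change was 1.10 ± 0.09 (limma adjusted p = 4.73e-07) in brain and 1.01 ± 0.09 (adjusted p = 6.70e-07) in spinal cord. The spinal cord value lay at the 2-fold line: it was 1.09 ± 0.08 without E13.5 replicate 3, and it fell below 1 under 6 of 23 alternatives, among them those without E13.5 spinal cord replicate 1 or 2 or P7 spinal cord replicate 3, the lowest being 0.87.

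Hk2 (chr6:82725025-82774454, minus strand) encodes the inducible hexokinase, prominent in muscle and in proliferating cells. In brain it was 22.7, 27.7 and 20.2 CPM at E13.5 and 9.12, 9.09 and 16.1 CPM at P7. In spinal cord it was 9.53, 9.07 and 11.98 CPM at E13.5 and 15.6, 13.8 and 16.3 CPM at P7. The ages did not overlap in either region, and the order was opposite. The log2 change in brain was -1.05 ± 0.20 (limma adjusted p = 0.000703), a fall that was called under the deposited scaling, while under TMM it was -0.86 ± 0.20 (adjusted p = 0.00256), short of 2-fold. The brain call was also lost without P7 brain replicate 1, P7 brain replicate 2 or E13.5 brain replicate 2, with P7 brain replicate 3 standing above the other P7 brain libraries. In spinal cord the change was 0.56 ± 0.20 (adjusted p = 0.0265), past the p threshold but not 2-fold, and 0.68 ± 0.21 without E13.5 replicate 3.

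The log2 ratio of Hk1 to Hk2 per kilobase at E13.5 was 0.36 ± 0.36 (SD, n = 3) for brain and 1.76 ± 0.10 for spinal cord, and at P7 it was 2.55 ± 0.51 and 2.20 ± 0.06. It was 4.58-fold higher at P7 in brain and 1.35-fold higher in spinal cord (1.31-fold without E13.5 replicate 3), without overlap of the ages in either region. At E13.5 the regions did not overlap, and at P7 they did.

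**Figure D2:**
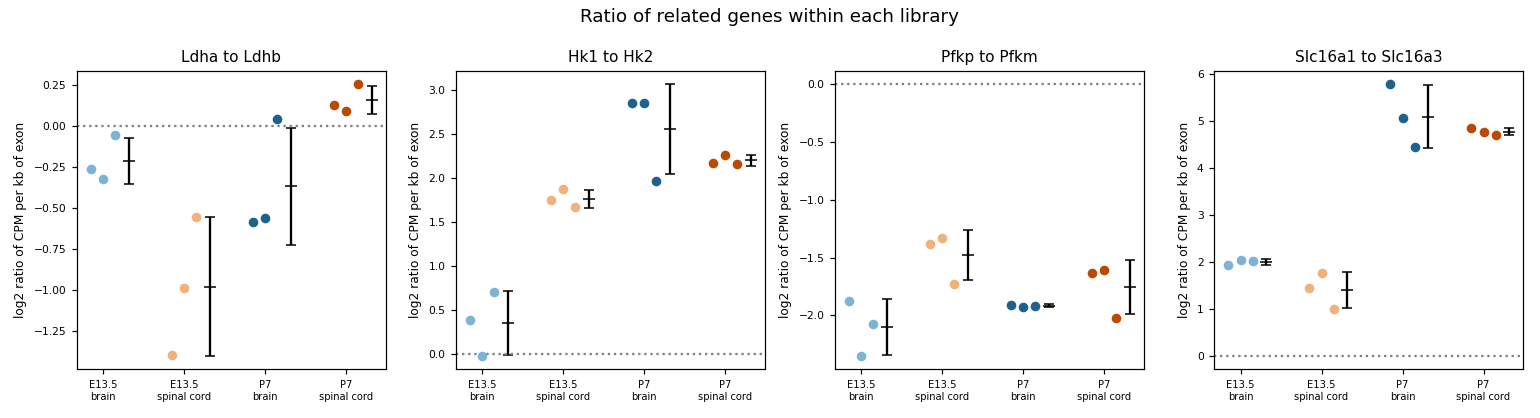
Log2 ratio of CPM per kilobase of exon (vertical axes) for 4 pairs of related genes in each library, with replicates 1 to 3 from left to right and the group mean ± SD beside them; the dotted line is equal levels per kilobase. The ratio of Slc16a1 to Slc16a3 is 4.44 or more in every P7 library and 2.05 or less in every E13.5 library, and Hk1 to Hk2 is lowest in E13.5 brain.

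Slc2a1 (chr4:119108711-119137983, plus strand) encodes GLUT1, the glucose transporter of the blood-brain barrier and of glia. In brain it was 19.4, 19.1 and 30.0 CPM at E13.5 and 10.2, 10.6 and 11.3 CPM at P7. The spinal cord values were 13.6, 14.8 and 22.6 CPM at E13.5 and 21.6, 22.7 and 16.6 CPM at P7. P7 brain was below all other groups, and the spinal cord ages overlapped. The log2 change in brain was -1.03 ± 0.21 (limma adjusted p = 0.000937), called under the deposited scaling, and -0.84 ± 0.21 (adjusted p = 0.00358) under TMM, short of 2-fold. The brain call was also lost without E13.5 brain replicate 3 or without P7 brain replicate 1. In spinal cord the change was 0.27 ± 0.21 (adjusted p = 0.264), and 0.49 ± 0.18 (adjusted p = 0.0277) without E13.5 replicate 3. A list of 8 markers of endothelium, where GLUT1 is abundant, summed to 51.5 to 87.5 CPM in E13.5 brain and 33.5 to 43.6 CPM in P7 brain. None was at 0 throughout. With age in brain, 1 of the 8 markers was called higher and 1 lower. In spinal cord the sum was 109 to 134 CPM at E13.5 and 22.8 to 31.7 CPM at P7. There 0 markers were called higher and 6 lower, or 4 lower without E13.5 replicate 3. The part of endothelium in the level of Slc2a1 was not tested.

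Pkm (chr9:59656368-59679375, plus strand) encodes the pyruvate kinase of most tissues, as M1 and M2 forms that a gene-level count does not separate. It had the highest level per kilobase of exon of the 10 members in all 4 groups, 69.3 to 111 CPM per kilobase as group means, and Slc16a3 had the lowest, 0.474 to 1.79. In brain Pkm was 491, 538 and 623 CPM at E13.5 and 395, 396 and 413 CPM at P7. In spinal cord it was 284, 313 and 442 CPM at E13.5 and 563, 547 and 551 CPM at P7. The ages did not overlap in either region, with P7 lower in brain and higher in spinal cord. The log2 change was -0.45 ± 0.15 (limma adjusted p = 0.0235) in brain and 0.70 ± 0.15 (adjusted p = 0.00136) in spinal cord, neither 2-fold. Under TMM the brain value was -0.26 ± 0.15 (adjusted p = 0.169), and without E13.5 spinal cord replicate 3 the spinal cord value was 0.89 ± 0.10. Of the 75-base stretches of Pkm exons, 17.8% also occur in 3 other annotated genes, so its counts may hold or lack some shared reads.

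Pfkp (chr13:6579768-6648777, minus strand) and Pfkm (chr15:98092589-98132451, plus strand) encode the platelet-type and muscle-type phosphofructokinases. Pfkm ran from 51.9 to 63.1 CPM at E13.5 and from 77.4 to 82.3 CPM at P7, without overlap in either region. Its log2 change was 0.52 ± 0.09 (limma adjusted p = 0.000184) in brain and 0.55 ± 0.09 (adjusted p = 8.90e-05) in spinal cord, so it rose by less than 2-fold in each; without E13.5 spinal cord replicate 3 the latter was 0.64 ± 0.06. Pfkp ran from 45.1 to 56.8 CPM in E13.5 brain and from 82.3 to 83.8 CPM in P7 brain. Its log2 change there was 0.71 ± 0.12 (adjusted p = 0.000177), a rise short of 2-fold. In spinal cord its ages overlapped, with a change of 0.28 ± 0.12 (adjusted p = 0.0466) that did not pass without E13.5 replicate 3 (adjusted p = 0.0817). Pfkp shares 748 exonic bases with Pitrm1 on the opposite strand, whose reads cannot be told apart if counting ignored strand.

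**Figure D3:**
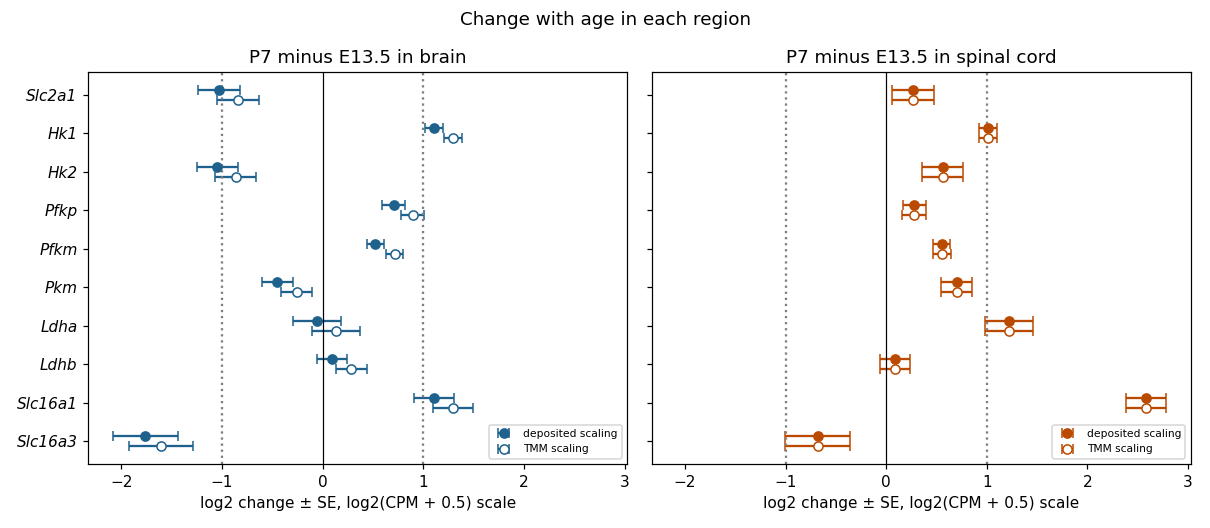
Log2 change with age ± SE (horizontal axes, log2(CPM + 0.5) scale) of the 10 genes in brain (left) and spinal cord (right), with filled points for the deposited scaling, open points for TMM and dotted lines at a 2-fold change. In brain Slc2a1 and Hk2 pass the dotted line only with filled points (-1.03 and -1.05, against -0.84 and -0.86), whereas Slc16a1 and Slc16a3 pass it with both.

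The second question is how brain and spinal cord differed at each age. At E13.5, Slc16a1 and Hk2 were higher in brain, and at P7 no member was called. At E13.5, brain had 2 of the 10 members called higher and 0 lower, beside 3.53% and 5.17% of all tested genes, and without E13.5 spinal cord replicate 3 it had 3 and 0. By limma 2 members were lower at an unadjusted p under 0.05, and voom, edgeR and DESeq2 each called 0 lower. At P7, 0 members were called in either direction by limma, voom, edgeR or DESeq2, beside 2.27% of tested genes called higher and 4.35% called lower in brain. By limma 2 members, Slc2a1 and Pkm, were lower in P7 brain at an unadjusted p under 0.05.

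In E13.5 brain the lowest Hk2 value, 20.2 CPM, was above the highest in spinal cord, 11.98 CPM, and the log2 difference was 1.17 ± 0.20 (limma adjusted p = 0.000892). For Slc16a1 the closest values were 24.4 and 19.6 CPM, and the difference was 1.07 ± 0.20 (adjusted p = 0.00133). Slc16a1 lost this call without E13.5 brain replicate 3 and without E13.5 spinal cord replicate 1, at 0.87 in each case. Ldha was also higher in each E13.5 brain library than in each spinal cord library, although the closest values were 131 and 128 CPM. Its difference of 1.00 ± 0.24 (adjusted p = 0.00720) lay just under 2-fold, and it was 1.36 ± 0.13 and called without spinal cord replicate 3. Ldha was also called without E13.5 brain replicate 1. Pkm differed by 0.69 ± 0.15 (adjusted p = 0.00457) and Pfkp by -0.65 ± 0.12 (adjusted p = 0.000938), neither 2-fold, and for each the regions did not overlap. Without spinal cord replicate 3, the values were 1.28 for Hk2, 1.28 for Slc16a1, 0.88 for Pkm and -0.68 for Pfkp.

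At P7, 9 of 10 members read lower in brain under the deposited scaling, with a median log2 difference of -0.34 beside -0.19 for all tested genes. Under TMM 7 of 10 were lower, with a median of -0.15 beside -0.02, so the direction of Hk1 and Pfkm turned. Slc2a1 had the largest difference, -0.88 ± 0.21 (limma adjusted p = 0.00745), and under TMM it was -0.69 ± 0.21 (adjusted p = 0.0352). Its P7 brain values of 10.2 to 11.3 CPM lay below the 16.6 to 22.7 CPM of P7 spinal cord, and without P7 spinal cord replicate 3 the difference was -1.01 and passed 2-fold. The difference for Pkm was -0.46 ± 0.15 (adjusted p = 0.0394), and it did not pass under TMM (-0.27, adjusted p = 0.273).

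The third question is whether the region difference itself changed with age, tested as an interaction. It did for 5 of the 10 members, all in 1 direction: for Slc2a1, Hk2, Pkm, Ldha and Slc16a1 the brain minus spinal cord value was above 0 at E13.5 and below 0 at P7. By themselves, the E13.5 value passed the adjusted p threshold for Hk2, Pkm, Ldha and Slc16a1, and the P7 value for Slc2a1 and Pkm. Called lower were 5 members and called higher 0, beside 9.66% and 6.66% of all tested genes. By limma 1 member, Pfkp, had a positive interaction at an unadjusted p under 0.05, and edgeR and DESeq2 gave 2 and 3 such members and called 0 higher. The interaction was -1.61 ± 0.29 for Hk2 (limma adjusted p = 0.000957), -1.48 ± 0.28 for Slc16a1 (adjusted p = 0.00142), -1.30 ± 0.29 for Slc2a1 (adjusted p = 0.00420), -1.28 ± 0.34 for Ldha (adjusted p = 0.0108) and -1.15 ± 0.22 for Pkm (adjusted p = 0.00137), all on the log2 scale. That of Slc16a3 was -1.08 ± 0.46 and did not pass (adjusted p = 0.0781). The other members lay between -0.03 and 0.43.

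Hk2 and Slc16a1 kept this call under all 23 alternatives, Slc2a1 under 22, and Ldha and Pkm under 19 each. Under TMM Pkm was at -0.96 ± 0.22 and was not called, and edgeR and DESeq2 on the recovered reads called Slc2a1, Hk2 and Slc16a1 only. Without E13.5 spinal cord replicate 3 the values were larger, from -1.34 (Pkm) to -1.72 (Hk2), and Slc16a3 was called as well at -1.48 ± 0.34. Slc16a3 was also called without P7 brain replicate 3.

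Genes of the cell cycle moved in the same direction. A list of 6 cycling-cell markers summed at E13.5 to 1795 to 1849 CPM for brain and 762 to 796 CPM for spinal cord. At P7 the sums were 759 to 939 CPM for brain and 1171 to 1291 CPM for spinal cord. All 6 had an interaction called lower, and none was at 0 in any group throughout. A list of 8 oligodendrocyte genes summed at P7 to 1926 to 4533 CPM for brain and 20387 to 27366 CPM for spinal cord, against 34.9 to 88.0 CPM at E13.5, and all 8 also had an interaction called lower. A list of 8 pericyte and leptomeningeal markers summed to 2591 to 3718 CPM in E13.5 brain and 5357 to 5813 CPM in E13.5 spinal cord, against 651 to 1306 CPM in the P7 libraries. Of the 8, 2 were called higher in the interaction (4 under TMM). Of the 5 precursor markers, 3 were called higher in E13.5 brain than in E13.5 spinal cord and 4 had an interaction called lower (3 under TMM). Their sums were 741 to 1232 CPM and 486 to 715 CPM at E13.5, and at P7 5069 to 5954 CPM for brain and 4793 to 4869 CPM for spinal cord. Without E13.5 spinal cord replicate 3, the counts of these lists under the deposited scaling were unchanged. The part of these cells in the results on the 10 members was not tested.

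The remaining enzymes of the pathway were read from a list of 25, of which 19 passed the filter. Counts of this list and those below stand beside these shares of all tested genes called higher and lower. They were 11% and 16.7% with age in brain, 16.9% and 18.2% in spinal cord, and 6.66% and 9.66% for the interaction. With age in spinal cord 7 of 19 were called higher and 1 lower, with a median log2 change of 0.50 beside 0.12 for all tested genes. In brain 1 was called higher and 2 lower, with a median of -0.10 beside -0.19, and under TMM 2 were called higher and 2 lower. The interaction was called lower for 8 of 19 and higher for 0 (median -0.93 beside -0.24), and under TMM for 5 (median -0.75 beside -0.07). Without E13.5 spinal cord replicate 3 the interaction was called lower for 10, and age in spinal cord was called higher for 8 and lower for 1.

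Aldoc, the aldolase typical of brain, rose from 23.7 ± 2.8 to 57.7 ± 2.3 CPM (SD, n = 3) in brain, and in spinal cord from 10.6 ± 3.0 to 76.3 ± 11.2 CPM. Its log2 change was 1.27 ± 0.18 (limma adjusted p = 5.22e-05) and 2.82 ± 0.18 (adjusted p = 2.81e-08). Bpgm, which makes the 2,3-bisphosphoglycerate of red cells, rose in spinal cord from 28.8 ± 1.1 to 153 ± 6.9 CPM, a log2 change of 2.39 ± 0.17 (adjusted p = 7.02e-08). Both were also called higher in E13.5 brain than in E13.5 spinal cord, by 1.15 and 1.14. The interaction was largest for Bpgm at -1.70 ± 0.24, then Aldoc at -1.54 ± 0.25 and Pgk1, phosphoglycerate kinase, at -1.36 ± 0.21. Pgk1 shares 52.8% of its 75-base exon stretches with 4 other genes.

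Pfkfb1, a bifunctional enzyme that sets the level of the phosphofructokinase activator fructose 2,6-bisphosphate, fell in brain from 4.23 ± 0.62 to 0.913 ± 0.443 CPM, and in spinal cord from 3.62 ± 0.68 to 0.657 ± 0.088 CPM. Its log2 change was -1.78 ± 0.22 and -1.82 ± 0.22, and it shares 123 exonic bases with Apex2 on the opposite strand. Ldhd, the D-lactate dehydrogenase of mitochondria, was called higher in P7 spinal cord (1.89 ± 0.27) but stayed at 2.75 CPM or less and shares 2246 of 5328 exonic bases with Znrf1 on the opposite strand. The brain change of Ldhd was 0.87 and not called, and under TMM it was 1.01 ± 0.27 and called.

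**Figure D4:**
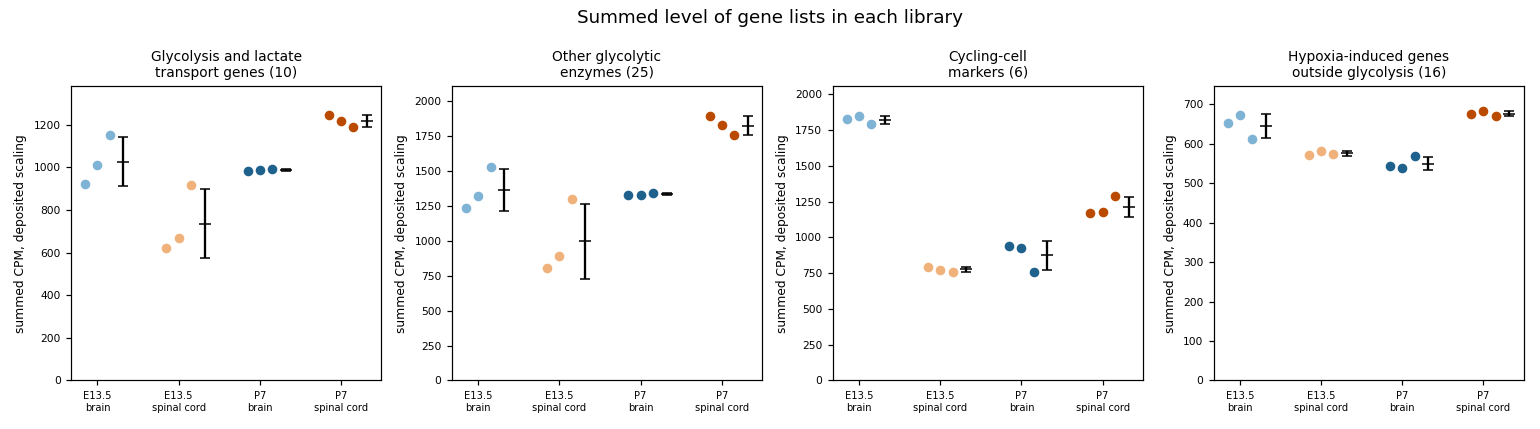
Summed CPM (vertical axes, linear, from 0) of 4 gene lists in each library, with replicates 1 to 3 from left to right and the group mean ± SD beside them. The 10 members and the other glycolytic enzymes are lowest in E13.5 spinal cord replicates 1 and 2 (620 and 670 CPM for the 10 members) and highest in P7 spinal cord (1190 to 1245 CPM), and the cycling-cell sum is highest in E13.5 brain.

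Other carriers of glucose and monocarboxylates changed in both directions. Of 13 tested, 4 were called higher and 3 lower with age in brain, and 5 higher and 4 lower in spinal cord. Under TMM the brain counts were 6 and 2, and without E13.5 spinal cord replicate 3 those of spinal cord were 5 and 3. Slc2a3, the neuronal glucose transporter GLUT3, rose in brain from 12.96 ± 1.29 to 53.2 ± 4.8 CPM, and in spinal cord from 14.2 ± 0.9 to 58.1 ± 0.8 CPM, by 1.996 ± 0.10 and 1.997 ± 0.10 on the log2 scale (limma adjusted p = 6.82e-09 and 3.57e-09). Slc2a6, a lysosomal hexose carrier, rose by 2.43 ± 0.15 and 2.25 ± 0.15 in the same order. Slc2a4, the insulin-responsive GLUT4, fell by 2.49 in brain and by 3.33 in spinal cord, from 8.89 ± 2.03 to 1.16 ± 0.18 CPM and from 12.7 ± 3.1 to 0.787 ± 0.044 CPM. Slc2a10 fell by 2.02 and by 1.66.

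Among monocarboxylate carriers, Slc16a7, which encodes MCT2, rose in brain by 1.35 ± 0.18 (limma adjusted p = 2.94e-05) to 13.3 ± 2.4 CPM and in spinal cord by 1.68 ± 0.18 (adjusted p = 2.98e-06) to 17.2 ± 1.0 CPM. Slc16a6 fell by 1.17 in brain, where it was at -0.99 and not called under TMM, and by 1.01 in spinal cord. Emb, embigin, a partner that brings these carriers to the membrane, rose in spinal cord from 2.57 ± 0.28 to 15.6 ± 1.1 CPM, by 2.40 ± 0.20 (adjusted p = 2.65e-07). The brain change of Emb was 0.85 and not called, and under TMM it was 1.03 ± 0.20 and called. Emb was also higher in E13.5 brain than in E13.5 spinal cord by 1.51 ± 0.20, and its interaction was -1.55 ± 0.28 (adjusted p = 0.000921). Bsg, basigin, the main partner of MCT1 and MCT4, had group means from 138 to 160 CPM and was not called in any comparison.

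Of 14 genes for the entry of pyruvate into mitochondria, 1 was called higher with age in brain (2 under TMM). In spinal cord 2 were called higher, or 3 without E13.5 spinal cord replicate 3. Mpc1, a subunit of the mitochondrial pyruvate carrier, rose in spinal cord from 16.9 ± 0.9 to 58.7 ± 2.0 CPM, by 1.77 ± 0.08 (limma adjusted p = 2.28e-09). The brain change of Mpc1 was 0.89 and not called, and under TMM it was 1.07 ± 0.09 and called. Pdk2, a kinase that switches pyruvate dehydrogenase off, rose in brain by 1.30 ± 0.22 and in spinal cord by 1.42 ± 0.22. Pdk3, another such kinase, was lower in P7 brain than in P7 spinal cord by -1.04 ± 0.11 (adjusted p = 2.42e-05), with an interaction of -1.31 ± 0.15. Under TMM the P7 difference of Pdk3 was -0.85 and was not called.

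Of the 7 genes of the pentose phosphate pathway, which branches from glucose 6-phosphate and supplies NADPH, 3 were called higher with age in spinal cord, with or without E13.5 replicate 3. These were Taldo1 (transaldolase, 2.59 ± 0.24), Tkt (transketolase, 1.34 ± 0.20) and G6pdx (the entry enzyme glucose 6-phosphate dehydrogenase, 1.14 ± 0.12). In brain 3 of 7 passed the adjusted p threshold of limma, none of them by 2-fold. Taldo1 at P7 stood at 111 ± 12.8 CPM for brain and 314 ± 46.5 CPM for spinal cord, a difference of -1.499 ± 0.24 (limma adjusted p = 0.000587), and its interaction was -1.85 ± 0.34.

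Hypoxia-inducible factors and their targets outside glycolysis were read beside the members. Of 10 factors and oxygen sensors, 1 was called higher and 1 lower with age in brain, beside 11% and 16.7% of all tested genes. Under TMM these counts were 2 and 1. In spinal cord 4 were called higher and 1 lower, also without E13.5 replicate 3. For the interaction, 1 of the 10 was called higher and 1 lower, with a median of -0.30 beside -0.24 for all tested genes. Epas1, which encodes HIF-2α, rose in brain from 5.92 ± 0.34 to 63.6 ± 2.8 CPM, and in spinal cord from 6.13 ± 0.32 to 18.8 ± 2.5 CPM. Its interaction was 1.78 ± 0.16 (limma adjusted p = 7.92e-06). The part of these factors in the results on the 10 members was not tested. Hif1a rose in spinal cord by 1.25 ± 0.09, and Vhl, the ubiquitin ligase subunit that marks the factors for decay, by 1.39 ± 0.12. The brain change of Vhl was 0.93 and not called, and under TMM it was 1.12 ± 0.12 and called. Hif3a fell by 3.49 in brain and by 3.58 in spinal cord, from 15.6 ± 0.8 and 17.8 ± 3.9 CPM to 0.937 ± 0.160 and 1.02 ± 0.27 CPM. Egln3, a prolyl hydroxylase that senses oxygen, had an interaction of -1.01 ± 0.29 (adjusted p = 0.0148), which was not called under TMM (-0.86).

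Of 16 hypoxia-induced genes outside glycolysis, 15 were tested. With age 1 was called higher and 2 lower in brain, and 3 higher and 1 lower in spinal cord (the same counts without E13.5 replicate 3), with medians of 0.03 and 0.28. Ddit4, an inhibitor of mTOR signalling, rose in brain by 1.13 ± 0.25 and in spinal cord by 2.01 ± 0.25. P4ha2, a collagen prolyl hydroxylase, fell by 2.12 and by 2.54. Bnip3, which directs mitochondria to autophagy, rose in spinal cord by 1.33 ± 0.11, and Higd1a, a mitochondrial protein, rose there by 1.24 ± 0.19. Ndrg1, also a gene of myelinating cells, fell in brain by 1.63 and stood at 4.29 ± 0.73 CPM in P7 brain against 32.1 ± 2.4 CPM in P7 spinal cord. The interaction was called lower for 2 of the 15, Ndrg1 (-1.91 ± 0.30) and Bnip3 (-1.08 ± 0.16), beside 9.66% of all tested genes. Bnip3 was not called under TMM (-0.89), and without E13.5 spinal cord replicate 3 the interaction was called lower for 5 of the 15.

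The genes whose centred log2 levels lay closest to a member over the 12 libraries were found by the root mean square difference. For Slc16a1 these were Slc35g1 (0.17), Acsl5 (0.19), which activates long-chain fatty acids, and Pcolce2 (0.19), beside a spread of 1.03 for Slc16a1 itself. For Pkm they were Actb, cytoskeletal actin, at 0.07, Ppia at 0.09 and Rpsa-ps2 at 0.10, beside a spread of 0.34. For Hk1 they were Fndc4 (0.08), the lysosomal protease gene Ctsb (0.09) and Pnmal2 (0.09), beside a spread of 0.54. For Hk2 the closest was Polr3g at 0.22 beside 0.51, for Ldha Tubb4b-ps1 at 0.17 beside 0.55, for Slc2a1 Pttg1 at 0.16 beside 0.46, and for Slc16a3 Gng5 at 0.26 beside 0.77. The 12 libraries fall into 4 groups, so these values describe mainly the pattern of group means and carry no test.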

How the data were processed

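RNA of GFP-positive cells was sequenced as stranded total RNA in 12 libraries. Per the methods of the study, reads were aligned with STAR 2.5.0a to mm10 and counted per GENCODE M8 gene with featureCounts 1.5.0-p1, with multimapping reads shared fractionally; use of strand in counting is not stated. The authors deposited CPM values computed from rescaled library sizes, and in 3 columns, whose sums exceed what plain CPM allows, these are named as a scaled signal. All values were whole multiples of 1 read (100% within 0.01 read), so reads were recovered. Intervals were not computed, and 3 reads correspond to 0.079 to 0.506 CPM. Gene positions and lengths came from GENCODE M21 on the same build.

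limma 3.58.1 (R 4.3.3) with an intensity trend was fitted to log2(CPM + 0.5) of 18319 genes that reached 0.7 CPM in 3 or more libraries, with 1 mean per group and p-values adjusted over all tested genes. The study used limma with voom, which was run on the recovered reads as an alternative, as were edgeR 4.0.16 and DESeq2 1.42.0, TMM and median-ratio scaling, pseudocounts of 0.1 and 1, no filter, the replicate number as a block, averaging of P7 replicates 1 and 2, and leaving out each library. Leaving out both E13.5 replicates 3 and using the principal transcript's length were added after seeing the data. Per the methods of the study, the 3 libraries of a group are biological replicates, each a pool of animals. The fit was also run on simulated counts with strong changes in P7 brain only and no library that stood apart. That run does not bear on calls near the 2-fold line.

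The members and the gene lists were chosen with earlier results of these data known. All 10 members are given in every comparison. From the other lists, the text names called genes, at most the 3 of largest change per direction and comparison, and Bsg, which was chosen after its values were seen. An item that this rule covers is not reported here. For likeness, the 3 closest genes with a mean of at least 5 CPM and no clone name were taken for each member.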

Additional observations from a re-analysis of the deposited data

Results flagged for a closer look

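The difference between brain and spinal cord changed with age for 5 members, by a test of the change itself (the interaction of region and age in limma, adjusted over all tested genes). On the log2 scale the change of the brain minus spinal cord difference from E13.5 to P7 was -1.30 for Slc2a1, -1.61 for Hk2, -1.15 for Pkm, -1.28 for Ldha and -1.48 for Slc16a1. Groups of 3 libraries are too small for a test of a stray sample.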

How the results depend on the processing

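Each of 50 values (10 members in 5 comparisons) was recomputed under 23 alternatives. Of the 1150 recomputed values, 1101 stayed on their side of the call (34 of them with a change of sign where neither value passed), 37 lost a call, 11 gained one and 1 reversed, the interaction of Pfkm under DESeq2 (0.29). For age in brain, where 5 members were called, TMM, median-ratio scaling, edgeR and DESeq2 each called 3. For age in spinal cord, DESeq2 called 1 of the 3. For region at E13.5, median-ratio scaling called 1 of the 2. For the interaction, median-ratio scaling called 2, and edgeR and DESeq2 each called 3 of the 5. Leaving out 1 library gave 3 to 5 members for age in brain (3 without P7 brain replicate 1), 1 to 3 for age in spinal cord (1 without E13.5 spinal cord replicate 1), 1 to 3 for region at E13.5 (1 without E13.5 brain replicate 3 or spinal cord replicate 1), 0 to 1 for region at P7 (1 without P7 spinal cord replicate 3) and 5 to 6 for the interaction. With no fold threshold, 8, 7, 5, 2 and 5 members passed in the 5 comparisons, and 11227, 12822, 5979, 5491 and 7290 genes. The replicate block left the members called at 5, 3, 2 and 0 and gave 6 for the interaction, by adding Slc16a3. Averaging P7 replicates 1 and 2 of each region gave 4, 3, 2, 0 and 4. Leaving out both E13.5 replicates 3 gave 4, 3, 3, 0 and 6. Same-numbered brain and spinal cord libraries correlated at 0.31, 0.08 and 0.41 at E13.5 and at 0.01, 0.02 and 0.04 at P7. Those with unlike numbers correlated at -0.44 to 0.20 at E13.5 and at -0.06 to 0.06 at P7. The main fit did not take the numbers as pairs, and whether same-numbered E13.5 libraries are linked was not tested. The share of calls that were higher moved under TMM from 34.3% to 46.8% for region at P7 and from 40.8% to 55.0% for the interaction. The mean log2 ratio over the groups depended on length: for Ldha to Ldhb it was 0.72 without division by length and 0.29 with the principal transcript against -0.35, for Hk1 to Hk2 2.75 with the principal transcript, and for Pfkp to Pfkm 0.19 without division and -0.33 with the principal transcript against -1.81. The causes were not tested. Depth limits Slc16a3 most, with 50 reads in its lowest library.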
